A study of Mus musculus with 8 samples.

Results

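Messenger RNA of retinoic acid-differentiated mouse cells (RA-DIFF) was compared between a library labelled Htt-null and a library labelled wild type. The genes described are those with at least 10 counts in either of the RA-DIFF libraries, 21771 of the 32567 genes in the deposited table. A further 10796 genes stayed under 10 counts in both libraries, and 363 genes reached 9 counts in the higher library against 335 that reached 10. The Htt-null cells are homozygous for the Hdh ex4/5 allele of Htt, the gene for huntingtin, and the wild-type cells carry no targeted allele. Both lines were grown as embryoid bodies and treated with retinoic acid, and each line was also sequenced as undifferentiated embryonic stem cells (ESC). The 4 RNA-seq libraries held between 63617410 and 110569127 counts, 100927951 for RA-DIFF labelled Htt-null and 110569127 for RA-DIFF labelled wild type. Each condition is 1 library from 1 cell line, so no difference below has a replicate check, clone and genotype cannot be told apart, and no p-value is given.

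In an embryoid body, pluripotent cells leave the stem cell state and form derivatives of the germ layers, and retinoic acid directs many of them to neural fates. Retinoic acid acts through nuclear receptors that switch on Hox genes in their chromosomal order and give neural progenitors a position along the body axis, while Sonic hedgehog and BMP signals set their dorsoventral position. Such cultures are mixed, and mesenchymal, smooth muscle and other non-neural cells commonly lie beside the neurons. Huntingtin is a large scaffold protein that is needed for early mouse development.

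Htt itself (chromosome 5, 34761740 to 34912534, forward strand, GRCm38) had 9722 counts in RA-DIFF cells labelled Htt-null and 8212 in those labelled wild type. That is 98.7 against 73.3 CPM (counts scaled by the library total after TMM scaling), a log2 ratio of 0.43 with a 95% counting interval of 0.39 to 0.47. In ESC the same gene had 7260 counts in the Htt-null library and 14385 in the wild-type library, a log2 ratio of -0.58. The RA-DIFF libraries were thus in the opposite order to the ESC libraries, and the targeted gene went against the RA-DIFF labels. Counts over the whole gene do not separate the exons that the allele removes from the rest. The per-condition expression values printed alongside the study matched the RA-DIFF column of the opposite label. Over 1329 genes of the printed table with at least 100 counts in the deposited column, the log2 difference from the crossed columns had an SD of 0.00297 and 0.00294, against 0.765 and 0.73 from the columns of the same name. For ESC the columns of the same name gave 0.00293 (1298 genes) and 0.00288 (1311 genes). Sizes of difference are therefore firm as a contrast of these libraries, but every direction below depends on the label, and the libraries are called by their labels throughout.

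A log2 ratio here is the library labelled Htt-null over the library labelled wild type, with TMM scaling and a prior count of 2, and a gene is called past the limit when the ratio lies beyond 0.75 in either direction, a 1.68-fold difference. Of the 21771 genes, 2877 (13.2%) were higher and 2873 (13.2%) were lower in the library labelled Htt-null, 26.4% in all. The median log2 ratio was -0.04, 46.5% of genes were above 0, the middle range ran from -0.38 (25th percentile) to 0.32 (75th percentile), and 582 genes were over 4-fold higher against 443 that were over 4-fold lower. For 1868 genes (8.58%) the whole 95% interval lay above the limit and for 1308 (6.01%) below it. Low genes were called more often, with 39.9% of genes called when the larger count was under 100 and 17.5% called among the 63 genes with the highest counts. Protein-coding genes were more often higher than lower (14.6% against 10.2% of 16206 genes), while long intergenic RNAs (11.2% against 22.5% of 1025), antisense RNAs (12.2% against 23.1% of 902) and processed pseudogenes (5.87% against 17% of 1379) were more often lower. Lists of genes are described below by these counts and by their medians, to be read against 13.2% in each direction and -0.04. Because the cultures are mixed, a lower count of a marker in bulk RNA cannot separate fewer cells of a type from less RNA per cell.

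**Figure D1:**
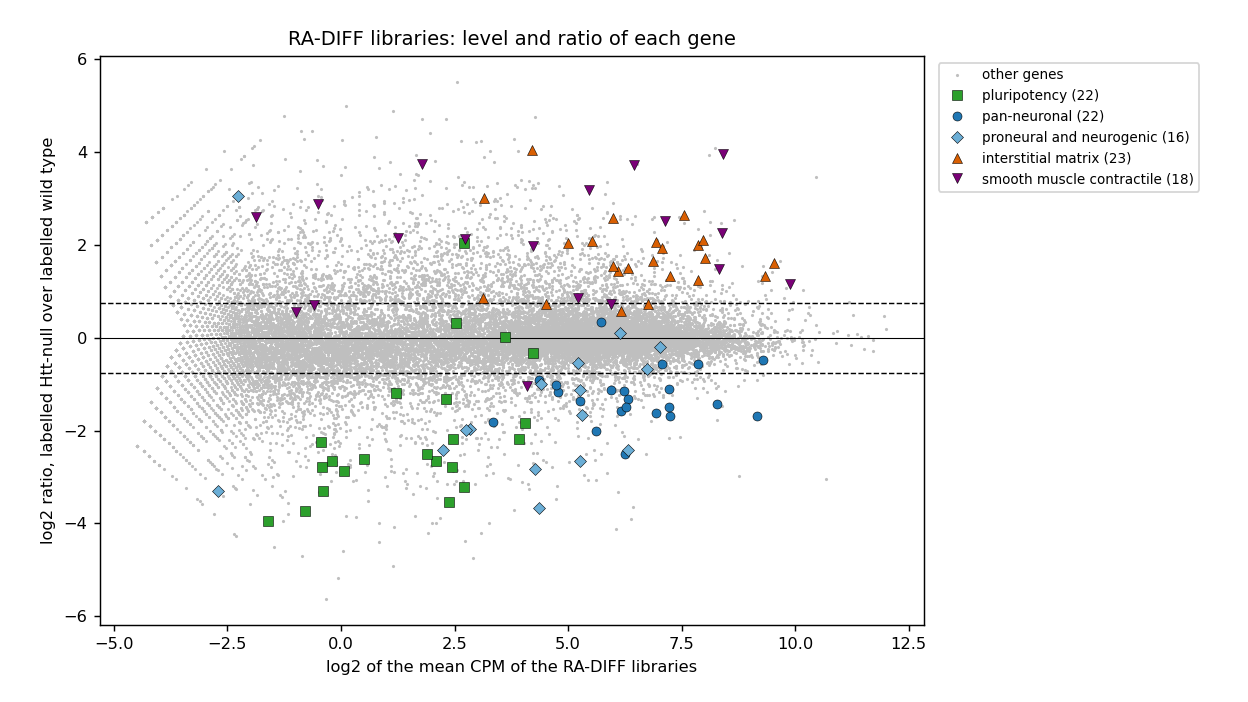
Log2 ratio of each of the 21771 genes (y axis, labelled Htt-null over labelled wild type) against the log2 of its mean CPM in the RA-DIFF libraries (x axis), with dashed lines at the limit of 0.75 in each direction and 5 gene lists in colour. Matrix and smooth muscle genes lie mostly above the upper line, and neuronal, proneural and pluripotency genes mostly below the lower line.

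Both libraries carried the markers of differentiated neural cultures. The 18 neural progenitor genes summed to 5086 and 5006 CPM in the libraries labelled Htt-null and wild type, against 632 and 708 CPM in the Htt-null and wild-type ESC. All 22 pan-neuronal genes were detected in both libraries. Genes of the blood list were sparse, with 7 of 17, including Gata1, Spi1 and Ptprc, under 10 counts in both RA-DIFF libraries, and Krt5 and Krt14 of the stratified epidermis were likewise under the filter. The 22 pluripotency genes summed to 71.9 and 167 CPM in the libraries labelled Htt-null and wild type, where the ESC libraries had 7099 and 8277 CPM.

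Transcripts of smooth muscle contraction made up the list with the highest median in the library labelled Htt-null. All 18 genes passed the filter, 14 were higher and 1 was lower, with a median log2 ratio of 2.14. Acta2, the smooth muscle actin (chromosome 19), had 62554 counts in the library labelled Htt-null and 4593 in the library labelled wild type, a log2 ratio of 3.95 (95% counting interval 3.91 to 4.00). Tagln, an actin-bundling protein of smooth muscle, had 15892 and 1378 counts (3.71, 3.64 to 3.80). Cnn1, smooth muscle calponin, had 635 and 52 counts (3.73, 3.39 to 4.23). Myl9, a regulatory myosin light chain, had 7757 and 963 counts (3.19, 3.10 to 3.29). Each of these thin-filament and myosin regulators was many times more abundant in the one library, and their intervals did not come near the limit. Tpm1 (54674 and 13108 counts, 2.25), a tropomyosin, and Flna (128502 and 65397 counts, 1.16), the actin crosslinker filamin A, were also higher. Myocd, the cardiac and smooth muscle coactivator of serum response factor, rested on few reads, 48 and 7 counts (2.59, 1.81 to 4.35). Mylk, the kinase that activates smooth muscle myosin, was the exception, with 1104 and 2599 counts (-1.05). Myh11, the smooth muscle myosin heavy chain that marks mature cells, stayed low in both libraries at 59 and 45 counts, and its ratio of 0.55 was within the limit.

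Promoters of smooth muscle contractile genes are known to be bound by serum response factor at the CArG box, so the sequences of 3 of them are shown (RefSeq starts, GRCm38.p6, 250 bases before to 50 after the start, 5′ to 3′ on the strand of the gene). Capitals mark an exact match to the CArG letters CCWWWWWWGG, where W is A or T. Near matches, such as ccctatatgg and ccttgtttgg in Acta2, are neither marked nor counted. Acta2 (chr19:34255324-34255623, reverse strand), the gene with the highest log2 ratio in the list, has no exact match, Myl9 (chr2:156775214-156775513, forward strand) has 1 that begins 161 bases before the start, and Cnn2 (chr10:79988350-79988649, forward strand; 23504 and 4658 counts, log2 ratio 2.52), a calponin, has 1 that begins 56 bases before it.
Acta2: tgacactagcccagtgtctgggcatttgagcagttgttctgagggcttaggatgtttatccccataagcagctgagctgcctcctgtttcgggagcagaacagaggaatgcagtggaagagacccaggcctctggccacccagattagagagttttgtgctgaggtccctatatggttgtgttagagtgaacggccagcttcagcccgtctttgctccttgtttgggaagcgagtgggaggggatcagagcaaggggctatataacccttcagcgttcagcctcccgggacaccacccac
Myl9: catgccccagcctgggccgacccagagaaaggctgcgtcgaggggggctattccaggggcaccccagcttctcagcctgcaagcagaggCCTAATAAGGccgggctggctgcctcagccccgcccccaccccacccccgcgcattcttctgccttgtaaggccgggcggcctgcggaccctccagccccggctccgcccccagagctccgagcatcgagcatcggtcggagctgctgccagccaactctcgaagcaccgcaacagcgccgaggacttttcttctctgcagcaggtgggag
Cnn2: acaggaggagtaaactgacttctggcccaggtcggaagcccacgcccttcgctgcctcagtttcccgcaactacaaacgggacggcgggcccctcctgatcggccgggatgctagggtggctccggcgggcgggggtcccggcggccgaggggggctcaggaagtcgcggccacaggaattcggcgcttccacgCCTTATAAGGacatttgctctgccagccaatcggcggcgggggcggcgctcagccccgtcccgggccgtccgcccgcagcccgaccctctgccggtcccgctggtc
Promoters were in the reference table for 14 of the 18 genes, and Tagln, Actg2, Myh11 and Myocd had none. The CArG box (both strands, exact letters) was found in 2 of the 14 genes (14.3%) and in 488 of all 27025 genes with a promoter (1.81%). The letters TATAAA were found in 2 of the 14 (14.3%) and in 15.7% of all genes. The 3 printed promoters held no TATAAA, and a match is a description of the letters in this window.

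Extracellular matrix genes followed the same direction. Of the 23 interstitial matrix genes that passed the filter, 20 were higher and 0 were lower, with a median of 1.64, and the summed level was 5526 against 1799 CPM. Mgp, an inhibitor of mineralization, was listed but had only 9 and 0 counts. Lox, the enzyme that crosslinks collagen and elastin, had the highest ratio of the list with 3424 counts in the library labelled Htt-null and 233 in that labelled wild type (4.05, 3.87 to 4.26). Fbln5, which organizes elastic fibres, had 1549 and 217 counts (3.01), and Thbs1, thrombospondin, had 31808 and 5822 counts (2.64). The small proteoglycan gene Dcn had 10729 and 2036 counts (2.58), and Col5a1, of a minor fibrillar collagen, had 21506 and 9697 counts (1.33). Eln, the elastin gene itself, was closer between the libraries at 1110 and 694 counts (0.86, 0.73 to 1.00). The 3 members within the limit were Col6a3 (0.58), Fbln1 (0.73) and Fbln2 (0.72). In ESC the same list leaned the other way: of 22 genes with at least 10 counts there, 10 were lower in Htt-null and 1 was higher, with a median of -0.70, where 7.26% of all ESC genes were lower and 11.1% were higher.

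Basement membrane genes split by chain. Of 16 genes, 9 were higher and 0 were lower, with a median of 1.501. The laminin chains Lama2, Lama4, Lama5, Lamb1 and Lamc1, the linkers Nid1 and Nid2, perlecan (Hspg2) and Col18a1 were the 9 higher genes, and Hspg2 was the highest at 37872 and 8528 counts (2.34, 2.30 to 2.37). The network collagens of type IV were not past the limit: Col4a1 had 46761 and 47052 counts (0.18), and Col4a2, Col4a5 and Col4a6 lay between 0.35 and 0.49. Agrn, the synaptic and basement membrane proteoglycan agrin, had 44552 and 55169 counts (-0.12).

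Transcription factors of mesenchyme were also mostly higher, 11 of 18 with 1 lower and a median of 1.16. Tbx18 (1273 and 215 counts, 2.74), a factor of mural and epicardial cells, Meox1 (319 and 76 counts, 2.22), a somite factor, and Twist2 (154 and 36 counts, 2.21) had the highest ratios apart from Tcf21, which rested on 11 and 0 counts. Prrx1, a marker of limb and craniofacial mesenchyme, had 8307 and 3261 counts (1.53). Tbx15 (837 and 1870 counts, -0.97) was the lower member, and Zeb2, which is also a neural gene, had 14037 and 17915 counts (-0.17). Among lateral plate and limb genes 7 of 14 were higher and 1 lower (median 0.98, and 0.49 with at least 1 count), among cartilage and bone genes 8 of 18 and 1 (0.66), among pericyte genes 4 of 8 and 0 (0.74), among kidney and gonad genes 7 of 14 and 1 (0.82), and among endothelial genes 5 of 15 and 1 (0.56, and 1.28 with at least 100 counts). Skeletal muscle genes were higher in 6 of 10 and lower in 0 (median 0.93, and 0.48 with at least 100 counts). For 3 of the 6 the whole counting interval passed the limit. Cardiac genes were higher in 7 of 14 and lower in 2 (median 0.74, and 0.35 with at least 1 count). For 2 of the 7 and 0 of the 2 the whole counting interval passed. Both lists were at a few CPM in both libraries, and Myf5, Myf6 and Tnnc2 did not pass the filter. In ESC the skeletal muscle median was 0.55, with 2 of 8 higher and 0 lower. The cardiac median there was 0.79, with 7 of 13 higher and 2 lower. Presomitic and somitic genes went both ways, with 5 higher and 3 lower of 12.

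**Figure D2:**
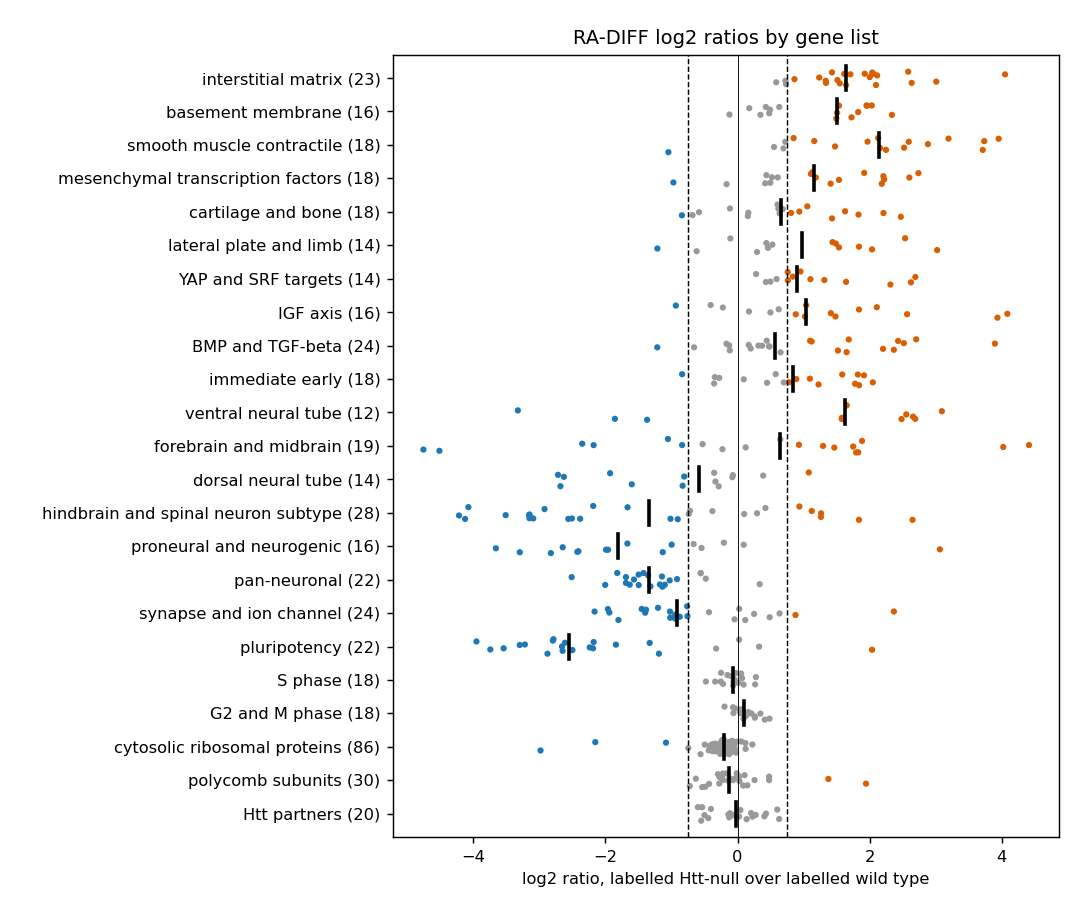
Log2 ratio of each gene (points) in 23 gene lists, labelled Htt-null over labelled wild type, with the number of genes that passed the filter in parentheses, the list median as a black bar and dashed lines at the limit of 0.75 in each direction. Orange points are higher and blue points lower in the library labelled Htt-null; the matrix and smooth muscle medians lie at 1.501 to 2.14 and the proneural median at -1.81, while cell cycle, polycomb and Htt partner lists stay near 0.

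Neuronal genes ran opposite to the mesenchymal ones. Of the 22 pan-neuronal genes, 0 were higher and 18 were lower in the library labelled Htt-null, with a median of -1.34 and summed levels of 1945 and 4278 CPM. Cntn2, an axonal adhesion molecule of early neurons, had 2240 counts in the library labelled Htt-null and 14544 in that labelled wild type (-2.51, -2.58 to -2.45). Nefl, a neurofilament subunit, had 1922 and 8773 counts (-2.003), and Dcx, the microtubule-binding protein of migrating neurons, had 16488 and 50329 counts (-1.42). The 4 genes within the limit were Map2 (51379 and 81580 counts, -0.48), Gap43 (-0.56), Uchl1 (-0.56) and Syt1, a synaptic vesicle calcium sensor, which had 5802 and 5235 counts (0.34). Synapse and ion channel genes were lower in 15 of 24 and higher in 2 (median -0.91). Voltage-gated potassium channel genes were called in both directions: Kcnq3 had 639 and 2841 counts (-1.96) and Kcnc1 had 7373 and 1625 counts (2.37). The glutamate receptor subunits Gria1 (0.12), Gria2 (0.25) and Gria4 (0.64) were within the limit, and Gria3 was higher at 5365 and 3323 counts (0.88).

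The proneural factors, which start neurogenesis, had a lower median than the neuronal markers. Of 16 genes 11 were lower and 1 was higher, and the median was -1.81. Neurog2 had 296 counts in the library labelled Htt-null and 4282 in that labelled wild type (-3.66, -3.84 to -3.50). Nhlh1 and Nhlh2, helix-loop-helix factors of newborn neurons, had 465 and 3767 (-2.83) and 1034 and 7377 counts (-2.65). Ebf3, which acts downstream of the proneural factors, had 2488 and 15051 counts (-2.41). Atoh1 was the 1 higher gene, but on 38 and 3 counts (3.06, 2.19 to 6.19). Neural progenitor genes showed no common direction: 2 of 18 were higher, 6 were lower and the median was -0.06. Slc1a3, a glutamate transporter gene (52858 and 26752 counts, 1.17), was at one end of that list and the neural POU factor Pou3f2 (6374 and 32010 counts, -2.14) was at the other. Sox2, the pan-neural progenitor factor, had 20911 and 23879 counts (-0.01).

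**Figure D3:**
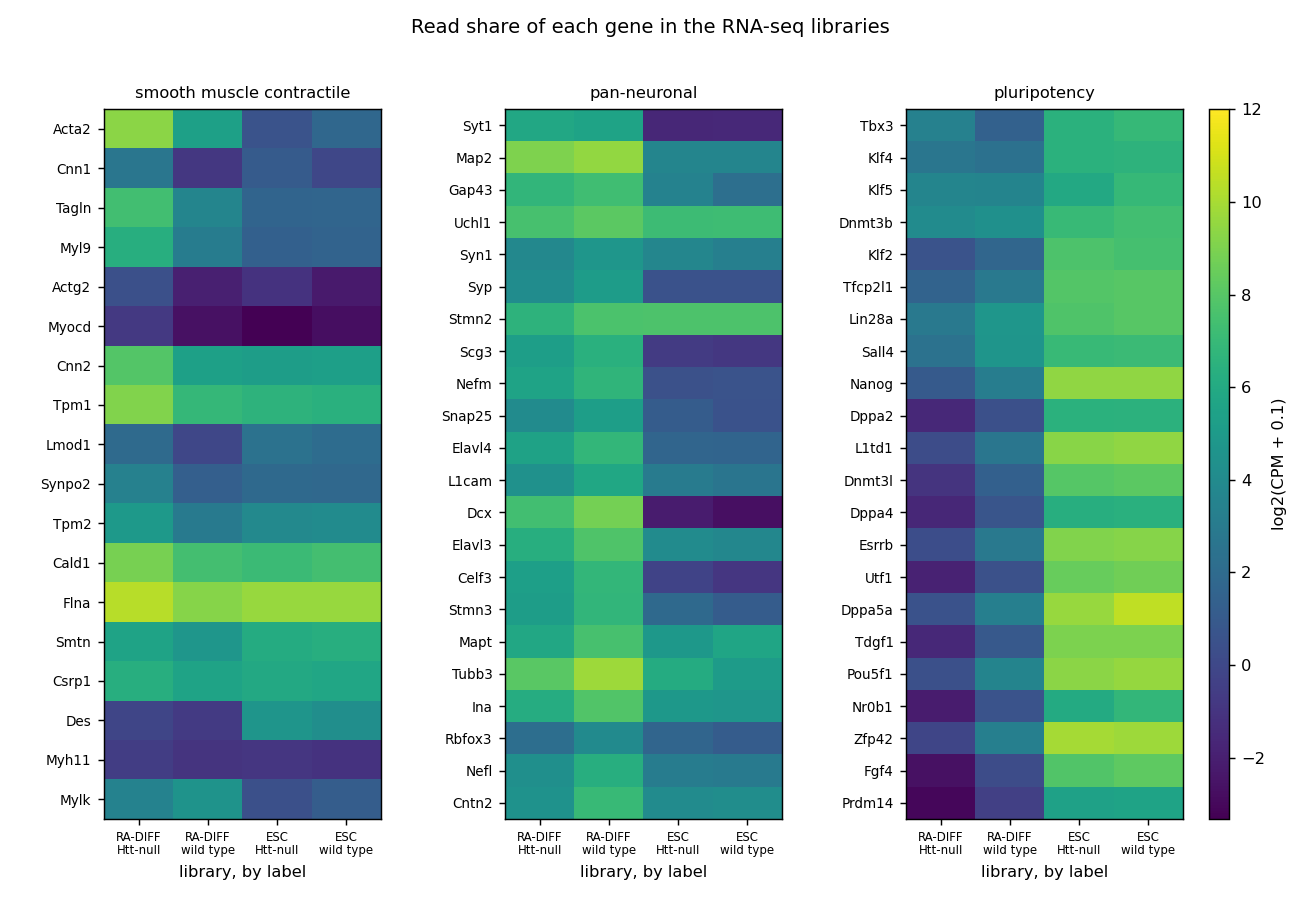
Log2(CPM + 0.1) of smooth muscle contractile, pan-neuronal and pluripotency genes (rows, ordered by RA-DIFF log2 ratio) in the 4 RNA-seq libraries (columns, by label). Most smooth muscle genes (14 of 18) have higher RA-DIFF values under the Htt-null than under the wild-type label, most neuronal genes (18 of 22) are lower, and pluripotency genes are brightest in the ESC libraries.

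Genes that specify neural tube position differed in both directions. In the ventral neural tube list 9 of 12 genes were higher and 3 were lower, with a median of 1.62. Shh, the ventral morphogen made by floor plate (chromosome 5), had 9960 counts in the library labelled Htt-null and 1326 in that labelled wild type (3.09, 3.01 to 3.18). The floor plate factor Foxa2 had 1208 and 211 counts (2.69) and the progenitor factor Nkx2-2 had 1652 and 296 counts (2.66). Olig2, which marks motor neuron and oligodendrocyte progenitors, had 10451 and 3981 counts (1.58). The 3 lower genes were Dbx1, Nkx6-2 and Sim1, and Dbx1, a factor of intermediate progenitors, had 1228 and 14027 counts (-3.33, -3.41 to -3.24). Floor plate genes and the intermediate domain gene Dbx1 were thus at opposite ends of the list. In the dorsal list 7 of 14 were lower and 1 was higher (median -0.58, and -0.35 with at least 100 counts). For 5 of the 7 and 0 of the 1 the whole counting interval passed the limit. Pax3 had 862 and 6304 counts (-2.68) and Pax7 had 95 and 725 counts (-2.72), both factors of dorsal progenitors, whereas the roof plate signal Wnt1 had 707 and 850 counts (-0.08). Of 12 Hedgehog pathway genes, 3 were higher (Shh, its binding protein gene Hhip at 1.22 and the receptor gene Ptch1 at 0.75, just past the limit), and 1 was lower (the coreceptor gene Boc, -1.30). The effector Gli1 had 9884 and 18070 counts (-0.68) and Smo was at 0.13.

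Postmitotic subtype factors of hindbrain and spinal cord were lower in 16 of 28 genes and higher in 6, with a median of -1.34 (-2.19 with at least 100 counts). Phox2a, a factor of visceral motor and noradrenergic neurons, had 23 counts in the library labelled Htt-null and 480 in that labelled wild type (-4.07). Lhx9, a factor of dorsal interneurons, had 709 and 14106 counts (-4.12), Pou4f1, a sensory neuron factor, had 347 and 3519 counts (-3.15), and Tal1, a factor of ventral interneurons, had 232 and 2016 counts (-2.92). Dorsal, ventral and visceral classes were all among the lower genes. Isl1, a motor neuron factor that other lineages also use, was higher at 1218 and 386 counts (1.84), and Pax8 had 1191 and 621 counts (1.12). Among transmitter genes 5 of 17 were higher and 6 lower. The vesicular glutamate transporter gene Slc17a6 had 474 and 3718 counts (-2.78), while Gad1, which makes GABA, had 2747 and 3708 counts (-0.25). Among genes used by serotonergic neurons, which were picked out after their values were seen, Slc6a4 had 139 and 23 counts (2.66), Tph2 97 and 18 counts (2.46), and Fev 81 and 1 counts (4.77, 4.01 to 11.85). Slc18a2 (0.19) and Lmx1b (0.29), which these neurons also use, were within the limit, and Gata2 (-1.01) and Gata3 (-2.19) were lower.

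Forebrain and midbrain genes also differed in both directions. In this list 9 of 19 genes were higher and 6 lower, with a median of 0.65. Nkx2-1, the factor of ventral forebrain, had 736 and 37 counts (4.41, 4.02 to 5.02), and Six6, an eye and hypothalamus factor, had 1803 and 124 counts (4.02). Dlx1, Dlx2, Dlx5 and Dlx6, factors of GABAergic neurons, had log2 ratios between 1.46 and 1.88. Dmbx1, a midbrain factor, had 51 and 1631 counts (-4.75), Tbr1, of glutamatergic cortical neurons, had 317 and 1851 counts (-2.35), and Otx2 had 16774 and 34152 counts (-0.84). Emx1 had 1 and 80 counts (-4.51, -11.46 to -3.62), so its size is poorly bounded.

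Hox genes, the best known retinoic acid targets, were low in both libraries. Of 39 Hox genes, 31 passed the filter, 5 were higher, 11 were lower and the median was -0.47. The clusters differed: Hoxb genes were lower in 6 of 9 and higher in 0 (median -1.24), Hoxa genes lower in 2 of 9 and higher in 1, Hoxc genes lower in 1 of 7 and higher in 1, and Hoxd genes lower in 2 of 6 and higher in 3. Hoxb1, a direct target of retinoic acid receptors in the hindbrain, had 64 counts in the library labelled Htt-null and 532 in that labelled wild type (-2.83, -3.27 to -2.49). In the Hoxd cluster, Hoxd8 had 243 and 50 counts (2.41) and Hoxd9 had 50 and 6 counts (2.81, 2.02 to 4.76). Hoxd13 had 3 and 59 counts (-3.38, -6.43 to -2.49), and Evx2, the homeobox gene next to the Hoxd cluster, had 12 and 485 counts (-4.92).

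Genes of retinoid handling were called in both directions, 9 higher and 4 lower of 20, with a median of 0.56. The receptor gene Rarb, itself induced by retinoic acid, had 3805 and 765 counts (2.497), and Dhrs3, a retinaldehyde reductase that retinoic acid induces, had 1875 and 413 counts (2.36). Among synthesis enzymes, Aldh1a3 had 855 and 175 counts (2.46), Aldh1a1 had 94 and 22 counts (2.16) and Rdh10 had 3961 and 2209 counts (1.03), all higher, and Aldh1a2 had 642 and 446 counts (0.71), within the limit. Cyp26b1, which breaks retinoic acid down, was far lower at 1242 and 17738 counts (-3.65, -3.73 to -3.57). The binding proteins Crabp1 (3414 and 12153 counts, -1.65) and Crabp2 (2042 and 7004 counts, -1.59) were lower as well. The other breakdown enzyme of the list, Cyp26a1, was close between the libraries at 114 and 106 counts (0.28). Of the posterior growth zone genes 5 of 13 were higher and 7 were lower. By the whole counting interval 4 were higher and 3 were lower. T (brachyury), a mesoderm and notochord factor, had 1172 and 68 counts (4.25), whereas Cdx1 had 7 and 77 counts (-2.93). The median of that list was -0.82 over all 13 genes and 0.78 over those with at least 100 counts.

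Several signalling lists had more higher than lower genes. Of 24 BMP and TGF-beta genes 11 were higher and 1 lower (median 0.57), among them the ligands Bmp4 (2220 and 488 counts, 2.37), Bmp7 (7668 and 1894 counts, 2.20), Tgfb3 (3878 and 817 counts, 2.43) and Inhba (305 and 21 counts, 3.90) and the receptor Tgfbr2 (9910 and 1728 counts, 2.70). The inhibitors Nog (-0.13) and Chrd (0.20) were within the limit and Fst, the activin-binding follistatin, was lower at 341 and 904 counts (-1.22). The Id genes, direct BMP targets, were within the limit as well, with Id1 at 0.37, Id2 at -0.66 and Id4 at -0.17. Of 14 YAP and SRF targets 10 were higher and 0 lower (median 0.90), led by Ctgf (9941 and 1750 counts, 2.69) and Cyr61 (11900 and 2193 counts, 2.62). FGF feedback genes were higher in 6 of 16 and lower in 2 (median 0.67); the ERK phosphatase gene Dusp6 had 33919 and 10447 counts (1.89) and Etv5 had 19989 and 5286 counts (2.10), while the ligand Fgf15 had 17509 and 55045 counts (-1.47). Of 20 Wnt genes 4 were higher and 6 lower (median -0.15), and the R-spondin genes Rspo1, Rspo2 and Rspo3, whose products potentiate Wnt signals, were all lower, with Rspo2 at 1321 and 11394 counts (-2.92). Notch genes had 3 higher and 4 lower of 17, and the target Hes5 had 594 and 2014 counts (-1.57) where Hes1 had 5407 and 3976 counts (0.63). Among axon guidance genes 9 of 27 were higher, including the floor plate attractant Ntn1 (55313 and 11390 counts, 2.47) and Slit1, Slit2 and Slit3 (1.75 to 2.10), and 4 were lower, including the commissural receptor Robo3 (1563 and 10061 counts, -2.50).

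The gene with the largest gain in CPM, Mest, was imprinted. In the IGF list 10 of 16 were higher and 1 lower, with a median of 1.03. Igf2, a fetal growth factor, had 43494 and 17716 counts (1.48), H19, the noncoding RNA that shares its imprinted locus, had 56339 and 3778 counts (4.08, 4.04 to 4.13), and Igfbp3, an IGF carrier, had 51107 and 3803 counts (3.93). Igf2bp1, an RNA-binding protein of fetal tissues, was the lower gene at 12324 and 26803 counts (-0.93). Over 26 imprinted genes 7 were higher and 1 lower, and the median was 0.27, with 18 within the limit. Mest, a mesoderm-expressed imprinted gene on chromosome 6, had 255493 and 26349 counts (3.46), a gain of 2359 CPM that was the largest of any gene. Peg3 had 121131 and 43900 counts (1.65), and Cdkn1c, a maternally expressed cell cycle inhibitor, was the lower gene at 5426 and 15716 counts (-1.35). Meg3 and Dlk1 of another imprinted region were within the limit at -0.24 and 0.08. The other large gains in CPM were Scd2, Vim, Actb, Ckb, Sparc, Flna, Igfbp2 and Hspa5, between 632 and 1267 CPM each with ratios of 0.46 to 1.61, and with Mest and Peg3 they made up 7.49% of all gains.

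The largest loss in CPM was a ribosomal RNA transcript. Rn18s-rs5 had 34635 counts in the library labelled Htt-null and 326339 in that labelled wild type (-3.05, -3.07 to -3.03), and 334805 and 366737 in the ESC libraries. Rmrp, the RNA of a ribosomal RNA-processing complex, had 1 and 176 counts (-5.63, -12.59 to -4.78), and Rn7sk, a small nuclear RNA that regulates transcription elongation, had 36 and 803 counts (-4.21). These RNAs carry no poly-A tail, and the libraries were made from poly-A-plus RNA. Replication-dependent histone mRNAs, which also lack the tail, were lower in 25 of 37 and higher in 0 (median -1.37). For 10 of the 25 the whole counting interval passed the limit, the summed level was 48.3 against 58.3 CPM, and the median was -0.80 with at least 100 counts and -0.86 with at least 1 count. Mitochondrial tRNAs were lower in 13 of 21. In ESC the histone list had 13 higher and 3 lower and a median of 0.20. The part of such RNA in the other differences was not tested. Lars2, a mitochondrial leucyl-tRNA synthetase gene, followed with 9725 and 86694 counts (-2.97). Eef1a1, Tubb3, Ptn, Tubb5, Pkm, Sox11, Dpysl3 and Apcdd1 completed the 10 largest losses, with differences from -659 to -339 CPM. Tubb3 and Dpysl3 are neuronal, Sox11 and Ptn are expressed in neural progenitors and young neurons, and Pkm is glycolytic.

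By ratio, the 10 highest genes among those that reached 100 counts in a library included Zcchc5, Gprc6a, Cxcl15, Col8a2, Pdgfb, Steap4, Cyp24a1, Nkx2-1 and Kcnmb1, with log2 ratios from 4.32 to 5.51. Among them Pdgfb, the growth factor that recruits mural cells, had 949 and 39 counts (4.71), Col8a2, a short-chain collagen, had 3664 and 151 counts (4.77), and Kcnmb1, the smooth muscle subunit of a calcium-activated potassium channel, had 322 and 16 counts (4.32). Cyp24a1, the enzyme that inactivates vitamin D, had 123 and 4 counts (4.46, 3.74 to 7.03). The 10 lowest included Rmrp, Nr1h4, Evx2, Dmbx1, Tfap2d, Gm29216, Prrxl1, Gm11408 and Rn7sk, with ratios from -5.63 to -4.21. Prrxl1, a factor of dorsal horn and sensory neurons, had 14 and 387 counts (-4.40), Tfap2d, an AP-2 factor of the midbrain, had 2 and 122 counts (-4.71, -8.81 to -3.86), and Nr1h4, the bile acid receptor, had 3 and 209 counts (-5.17, -8.23 to -4.37). Evx2, Dmbx1, Tfap2d and Prrxl1 are transcription factors known from neural cells.

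Pluripotency genes, although low against ESC, differed between the RA-DIFF libraries more than any other list by median. Of 22 genes 18 were lower and 1 was higher, with a median of -2.56. Pou5f1, the core pluripotency factor, had 123 counts in the library labelled Htt-null and 1324 in that labelled wild type (-3.22, -3.52 to -2.97), where ESC had 42853 and 65651. Zfp42 had 79 and 1073 counts (-3.54), and Prdm14 had 2 and 71 counts (-3.95, -8.04 to -3.06). Their levels of 1.25 and 11.8 CPM (Pou5f1) compare with 657 and 757 CPM in the ESC libraries. The 4 other genes of the list were not lower: Tbx3 was higher at 1041 and 287 counts (2.04), and Klf4 (0.33), Klf5 (0.02) and Dnmt3b (-0.32) were within the limit. In ESC the list had 0 higher and 2 lower and a median of -0.15. Trophoblast genes were lower in 4 of 8 and higher in 0 (median -0.85), and germline genes had 1 higher and 3 lower of 11 (median 0.02).

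Several lists of general cell function did not differ past the limit. None of the 18 genes of the G2 and M phases, of the 18 genes of S phase, of the 21 genes of cholesterol synthesis or of 20 Htt partners was called, with medians of 0.10, -0.07, -0.11 and -0.02. Mki67, a proliferation marker, had 77479 and 78747 counts (0.16). Of 86 cytosolic ribosomal protein genes 3 were lower and 0 higher (median -0.20), and 82 were below 0. Polycomb subunits were 0 lower and 2 higher of 30 (median -0.13). The methyltransferase gene Ezh2 had 24559 and 33872 counts (-0.28). The 2 higher genes were Phf19 (6961 and 2057 counts, 1.94), an accessory subunit of the complex that methylates histone H3, and Pcgf5 (2926 and 1282 counts, 1.38), of the other polycomb complex. Glycolysis genes were lower in 3 of 21, Pfkl, Ldha and Slc16a3, with a median of -0.35; the lactate exporter gene Slc16a3 had 515 and 5422 counts (-3.20). In the hypoxia list Pdk1, which restrains mitochondrial pyruvate use, had 2028 and 9230 counts (-1.999) and Bnip3, of mitophagy, had 1561 and 7955 counts (-2.16), but Adm, a vasodilator peptide gene, had 446 and 65 counts (2.92), and 4 of 14 were lower and 3 higher. Immediate early genes were higher in 10 of 18 and lower in 1 (median 0.83), with Fos at 3475 and 1103 counts (1.84) and Egr1 at 15248 and 4603 counts (1.91). Interferon response genes were higher in 10 of 17 and lower in 1 (median 0.91), led by Ifitm3 with 4122 and 753 counts (2.63).

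Clustered protocadherins, cell-surface proteins that give neurons individual identities, separated by cluster. Of 22 Pcdhb genes 11 were lower and 0 higher (median -0.74), of 13 Pcdha genes 6 were lower and 2 higher (median -0.55), and of 20 Pcdhg genes 0 were lower and 4 higher (median 0.54), with all 20 above 0. The 2 higher alpha genes were the C-type isoforms Pcdhac1 (284 and 93 counts, 1.77) and Pcdhac2 (2597 and 607 counts, 2.28). Variable exons of the alpha and gamma clusters are spliced to shared exons, so reads in the shared part fit more than 1 gene. How such reads were counted was not examined, and these counts are uncertain. Among astrocyte genes 4 of 12 were higher and 2 lower (median 0.18): Gfap had 888 and 3465 counts (-1.77) while Gja1, the connexin of astrocytes, had 37836 and 19639 counts (1.13). Oligodendrocyte lineage genes were higher in 5 of 11, 3 of them by the whole counting interval, and lower in 1 (Mog, 101 and 197 counts), with Pdgfra at 3941 and 1306 counts (1.78) and Sox8 at 2807 and 300 counts (3.40), while the myelin gene Mbp had 1168 and 1988 counts (-0.58).

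Over 14413 genes with a mean log2 CPM above 0 in the 4 libraries, the median was -0.01, and the autosomes other than chromosome 8, with chromosome X, had medians between -0.09 and 0.11. The mitochondrial genome had a median of -0.56 over 26 genes, 9 lower and 0 higher, its tRNA genes included, while the 13 genes of the mitochondrial genome list had a median of -0.06, 1 lower and 0 higher, and summed to 16480 against 15780 CPM. Chromosome Y had a median of 0.53 over 7 genes. Chromosome 8 had a median of -0.22 over 767 genes, 11% of them lower and 6.91% higher, against 7.37% and 10.9% on all chromosomes. In ESC the median of the same genes was 0.36 in Htt-null over wild type. Among genes with at least 100 counts in an ESC library, 4 differed by over 16-fold between the ESC libraries, of which 1 passed the RA-DIFF filter and 0 were past the limit there. At 4-fold and the same minimum there were 29 such genes, and of the 11 measured ones higher in Htt-null ESC 2 were past the limit in the same direction and 4 in the opposite direction in RA-DIFF. Of the 8 measured ones higher in wild-type ESC, 1 was past the limit in the same direction and 0 in the opposite one, where 13.2% of all genes passed it in each direction.

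Across all 62 lists, 14 had a median above 0.75 in the RA-DIFF libraries and 9 a median below -0.75, and 4 lists had no called gene. In ESC 1 of the 61 lists with at least 5 measured genes, the cardiac list, had a median past 0.75 (0.79). The lists together hold 1087 genes that passed the filter, of which 277 were higher and 229 lower.

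**Figure D4:**
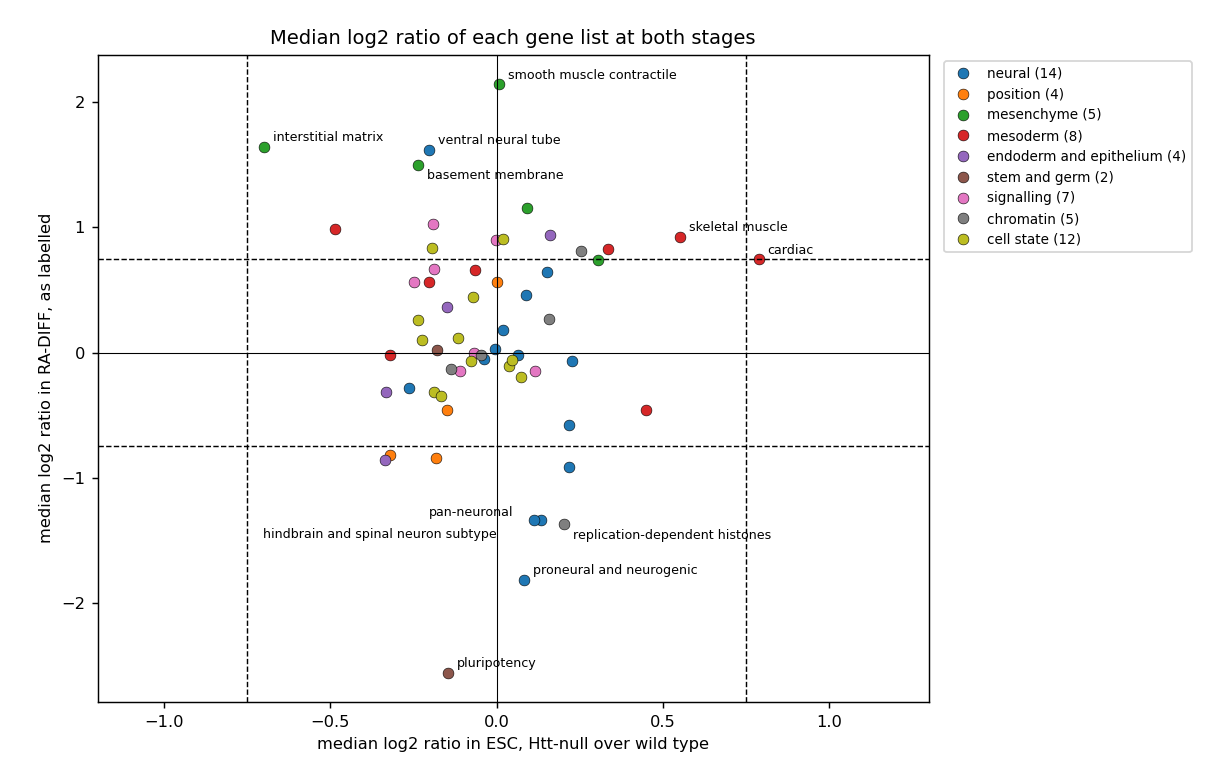
Median log2 ratio of each gene list in RA-DIFF (y axis, by label) against its median in ESC (x axis, Htt-null over wild type) for the 61 lists with at least 5 genes measured in ESC, coloured by family, with dashed lines at 0.75 in each direction. Spread is wide on the RA-DIFF axis, from -2.56 for pluripotency to 2.14 for smooth muscle contraction. It is narrow on the ESC axis, from -0.70 for the interstitial matrix list to 0.79 for the cardiac list.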

How the data were processed

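RNA-seq of Htt-null and wild-type cells as ESC and after retinoic acid treatment of embryoid bodies was used, 1 library per condition, made from poly-A-plus RNA with a strand-specific dUTP method per the labels. The authors deposited raw read counts per gene, and the submitters' processing notes name TopHat2 2.0.14, HTSeq 0.6.1 and GRCm38.p4. HTSeq was run in its intersection-nonempty mode, and the study's methods leave options that they do not name at their defaults, the strand option among them. Whether that setting matches the dUTP libraries was not tested, and overlapping or near-identical genes are uncertain. The small RNA libraries were not used here.

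Genes with at least 10 counts in either RA-DIFF library were kept. Log2 ratios were computed with edgeR 4.0.16 in R 4.3.3 (TMM factors over the 4 libraries, prior count 2), with an absolute value above 0.75 as the limit, which follows the fold limit of the study's methods. With 1 library a side there is no spread between replicates, so no p-value is given. Exact (Clopper-Pearson) 95% intervals of the ratio cover counting error only, and a count of 0 allows up to 3 counts. The steps were tested on simulated data. Genes were named if they were Htt, belonged to a gene list, were among the 10 highest or lowest ratios with at least 100 counts or among the 10 largest gains or losses in CPM. Some of these genes are not reported here. Members and lists were chosen with earlier results of these data known. Promoters were read from a RefSeq table (GRCm38.p6). Alternatives were other scalings (DESeq2 1.42.0 size factors included), prior counts, filters and limits. Tables were joined in pandas 2.3.3 with numpy 2.4.6 (Python 3.11.15), intervals came from scipy 1.17.1 and plots from matplotlib 3.10.9.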

Additional observations from a re-analysis of the deposited data

Results flagged for a closer look

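Some values had opposite signs in RA-DIFF and ESC, and with 1 library per condition these differences between stages were not tested. Htt was 0.43 in RA-DIFF and -0.58 in ESC (log2, labelled Htt-null over labelled wild type). The median of the interstitial matrix list was 1.64 and -0.70. Rmrp was -5.63 and 0.94, Rn7sk was -4.21 and 0.82, and Gm11408 was -4.37 and 0.77. Tubb3, neuronal beta-tubulin, was -1.69 and 1.00. The median of chromosome 8 was -0.22 and 0.36. Each sign in RA-DIFF depends on the label, which the Htt counts go against.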

How the results depend on the processing

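No paired analysis was possible because each condition has 1 library and the labels carry no replicate numbers, and no replicate could be left out. The 2877 higher and 2873 lower genes became 1825 and 1352 with at least 100 counts in either library, where fewer genes are compared, and 1868 and 1308 when the whole counting interval had to pass the limit. An edgeR exact test at an assumed dispersion of 0.1 gave 694 and 378, and at 0.01 it gave 1578 and 1054. These counts also required a log2 ratio past 0.75 and a mean log2 CPM above 0 in the 4 libraries. With those limits and no test, 1578 were higher and 1062 lower of 14413 genes. The fall from 2877 and 2873 to the counts at 0.01 therefore came almost wholly from the CPM limit, not from the test. Higher and lower genes numbered 4204 and 4384 with at least 1 count, 2116 and 1881 at a log2 limit of 1, and 2373 and 1660 among protein-coding genes. Other scalings put the median of all genes between -0.09 and -0.01 and the higher share of calls between 46.1% and 52%. Of the 528 called genes among the 1114 in the lists or the leading sets, 519 to 528 stayed called under the scalings and prior counts tried, and 0 reversed. Of the 23 list medians past 0.75 in either direction, 1 reversed: posterior growth zone went from -0.82 to 0.78 with at least 100 counts. At that filter skeletal muscle (0.48) and stratified epidermis (0.72) no longer passed 0.75, pericyte (0.91), endothelium (1.28) and visceral and primitive endoderm (1.06) did, and the hindbrain and spinal list moved to -2.19. With at least 1 count, lateral plate and limb (0.49), trophoblast (-0.49), posterior growth zone (-0.65) and stratified epidermis (0.64) no longer passed, and at a prior count of 5 kidney and gonad (0.73) did not. The pericyte and cardiac medians, 0.74 and 0.74, passed 0.75 under 2 and 3 of the other scalings and prior counts. The genes with at least 100 counts in an ESC library that differed there by over 16-fold numbered 4, against 8 at 8-fold and 29 at 4-fold, both limits added after seeing the data.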
